A study of Mus musculus with 3 samples.

Results

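The replication machinery described here comprised 38 genes, taken by symbol from a named list of the factors that load the replicative helicase, start it and copy DNA behind it, out of 21938 protein-coding genes in the annotation. All 38 symbols matched a single protein-coding gene, on 13 chromosomes, and Pola1 alone was on the X chromosome. Replication starts when the origin recognition complex, Cdc6 and Cdt1 place rings of Mcm2 to Mcm7 on DNA, a step called licensing that geminin blocks outside G1. Cdc45, the GINS complex and Mcm10 then turn the ring into a working helicase, and polymerases held by the PCNA clamp copy the strands that it opens. Embryonic stem cells divide fast with a short G1 phase, and many of these genes are classical targets of E2F transcription factors.

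Enriched regions from ChIP-seq were listed for F123 mouse embryonic stem cells (mESCs), a male hybrid line derived from S129/Jae and Cast. One list held H3K27me3, the histone mark of Polycomb repression. The others held forms of RNA polymerase II named for the phosphate on its C-terminal repeats, Pol2-S5p for serine 5 and Pol2-S7p for serine 7. The cells were grown on inactivated embryonic fibroblast feeders with LIF and serum replacement, and were passaged without feeders before harvest, without any other treatment. There was 1 library per mark, so no comparison below has a replicate error or a test, and every count and median is a description of these libraries. The lists held between 17342 and 29222 regions and no read counts, so the depth behind a region is unknown. Reads from all cells of the culture and from both parental chromosome sets entered each list, so marks that overlap at a gene need not lie on the same chromosome copy. At the starts used here, all 12 markers of embryonic stem cells examined, such as Pou5f1 and Nanog, had both polymerase forms (10 without and 2 with H3K27me3). At the start of their longest transcript 11 of 12 had both and 4 had H3K27me3, with Esrrb carrying H3K27me3 alone and Lin28a all 3 marks. Under either choice, of 12 fibroblast markers 11 had no Pol2-S7p and Fbln1 had all 3 marks. Pol2-S5p was at 4 of these 12 fibroblast markers, Fbln1 among them, and H3K27me3 at 7.

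A gene was scored in a window of 2 kb centred on a transcription start site (TSS), and a mark was counted as present when a region touched the window by at least 1 bp. The promoter states were adapted from those of the study, which also set a read threshold in the window and left out overlapping genes and genes with close TSSs. Neither step was done here, since the lists hold no reads and shared starts are described as such. A promoter is called Active when it has both polymerase forms without H3K27me3. PRC-Active (PRCa) stands for all 3 marks together, PRC-repressed (PRCr) for H3K27me3 with Pol2-S5p and no Pol2-S7p, and Inactive for no mark. Among several annotated starts of a gene, the one whose window had the most Pol2-S5p coverage was taken. That choice fell on the start of the longest transcript in 28 members, within 1 kb of it in Orc6 and Pola1, and more than 1 kb into the gene in 8 members. These 8 were Mcm3 (15.4 kb into the gene), Orc1 (24.6 kb), Orc3 (38 kb), Cdc6 (12.7 kb), Gins2 (3.1 kb), Rfc2 (8.83 kb), Prim1 (11.5 kb) and Pole (41.3 kb). Promoter states, region widths and motif counts are therefore given at the start of the longest transcript too where they differ. Regions at the promoter differed in width between the starts for Orc1 (Pol2-S7p, 56.4 kb at the chosen start and 25.2 kb at the other), Orc3 (17.4 and 3.2 kb for Pol2-S5p, 19.2 and 3.2 kb for Pol2-S7p) and Pole (Pol2-S5p, 172.6 and 6.4 kb).

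As examples, promoters of licensing genes chosen for holding an E2F motif are printed first, and they do not stand for all members. The motif was searched in 4 spellings, TTTCCCGC, TTTCGCGC, TTTGCCGC and TTTGGCGC, on both strands, from 250 bases before to 50 bases after the start. Below, 250 bases before and the first 20 bases from the start of the longest transcript are given 5′ to 3′ on the strand of the gene, from GRCm38 (mm10), with the motif in capitals where it lies in the printed bases. That reference comes from a strain that is neither parent of the F123 line. Variants of the parental strains were not entered in the printed or searched sequences, so either allele of the cells may differ from them. Mcm4 lies at chr16:15637381-15637650 (minus strand), Mcm5 at chr8:75109319-75109588 (plus strand), Mcm6 at chr1:128359645-128359914 (minus strand) and Orc1 at chr4:108579204-108579473 (plus strand). Orc1 was added to Mcm4, Mcm5 and Mcm6 after its match was seen at the start of the longest transcript. Its start chosen by Pol2-S5p coverage lies inside the gene. The same holds for Mcm3 and Cdc6, whose matches lay after the start of the longest transcript, and these were not printed.
Mcm4: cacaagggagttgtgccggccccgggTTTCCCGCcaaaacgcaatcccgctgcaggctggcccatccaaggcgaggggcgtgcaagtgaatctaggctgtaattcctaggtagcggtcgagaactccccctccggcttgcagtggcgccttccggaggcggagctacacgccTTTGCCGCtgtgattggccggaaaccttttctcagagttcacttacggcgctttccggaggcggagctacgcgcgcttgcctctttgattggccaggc
Mcm5: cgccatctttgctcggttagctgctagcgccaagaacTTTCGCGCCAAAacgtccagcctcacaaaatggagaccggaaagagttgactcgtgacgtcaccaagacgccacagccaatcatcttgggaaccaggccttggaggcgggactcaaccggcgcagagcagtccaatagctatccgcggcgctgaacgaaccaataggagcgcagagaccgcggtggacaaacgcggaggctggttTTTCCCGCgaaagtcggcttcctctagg
Mcm6: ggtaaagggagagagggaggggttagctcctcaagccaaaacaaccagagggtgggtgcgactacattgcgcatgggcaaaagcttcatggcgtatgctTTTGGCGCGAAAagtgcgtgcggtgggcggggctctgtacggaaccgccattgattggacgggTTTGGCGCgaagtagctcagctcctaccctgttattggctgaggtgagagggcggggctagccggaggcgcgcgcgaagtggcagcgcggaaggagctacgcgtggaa
Orc1: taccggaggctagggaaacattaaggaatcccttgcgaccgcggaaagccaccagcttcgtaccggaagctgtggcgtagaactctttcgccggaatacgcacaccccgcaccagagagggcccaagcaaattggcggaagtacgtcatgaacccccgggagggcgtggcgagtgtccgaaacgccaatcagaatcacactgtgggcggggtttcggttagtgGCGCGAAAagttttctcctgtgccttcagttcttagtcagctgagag

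In Mcm4, TTTCCCGC began 224 bases and TTTGCCGC 78 bases before the start, both on the strand of the gene. Mcm5 held a pair of overlapping matches on opposite strands, whose first bases lay 213 and 209 bases before the start, and another match, TTTCCCGC, 8 bases before it. Mcm6 had the same arrangement of an overlapping pair, at 151 and 147 bases before the start, with another TTTGGCGC 88 bases before it. Orc1 had a single match on the opposite strand, 27 bases before the start. These 4 sequences lay inside Pol2-S5p and Pol2-S7p regions, as the starts of the longest transcripts of all 38 members did.

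At the starts chosen by Pol2-S5p coverage, 8 of 38 members held an E2F motif, namely Mcm4, Mcm5, Mcm6, Cdt1, Gmnn, Gins1, Rfc3 and Pola1, against 2.54% of all protein-coding genes. At the start of the longest transcript the count was 13 of 38, with Mcm3, Orc1, Orc3, Cdc6 and Pole added, against 2.78% of protein-coding genes and 4.38% of Active ones. These 5 added genes are among those whose chosen start lay inside the gene. In Gins1, which encodes a GINS subunit, the same letters were read on both strands, with first bases 9 and 5 bases before the start. In Cdt1, Cdc6, Mcm3, Rfc3 and Pole the matches lay after the start, between 20 and 41 bases from it counting the start as base 1. No match of these letters was found in the windows of Mcm2, Mcm7 and Pcna.

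The CCAAT box, read on either strand in the same window, was found in 23 members at the chosen starts, against 36.7% of protein-coding genes, and in 25 at the start of the longest transcript, against 38.7%. Mcm5 held 3 copies, 137, 82 and 54 bases before the start, and Mcm3 and Rpa2 held 3 copies each as well. Both motifs stood together in 11 members, and 11 members held neither. These joint counts were not made over other genes. In the plot of motif positions the E2F letters stand on both sides of the start. CCAAT letters began before it except in Orc2, Prim1 and the second match of Mcm4. A match of letters is a description of the reference sequence and not of a bound factor. The median ratio of observed to expected CpG in the 2 kb window at the start of the longest transcript was 0.596 over the members, 0.48 over all protein-coding genes and 0.617 over Active ones.

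**Figure D1:**
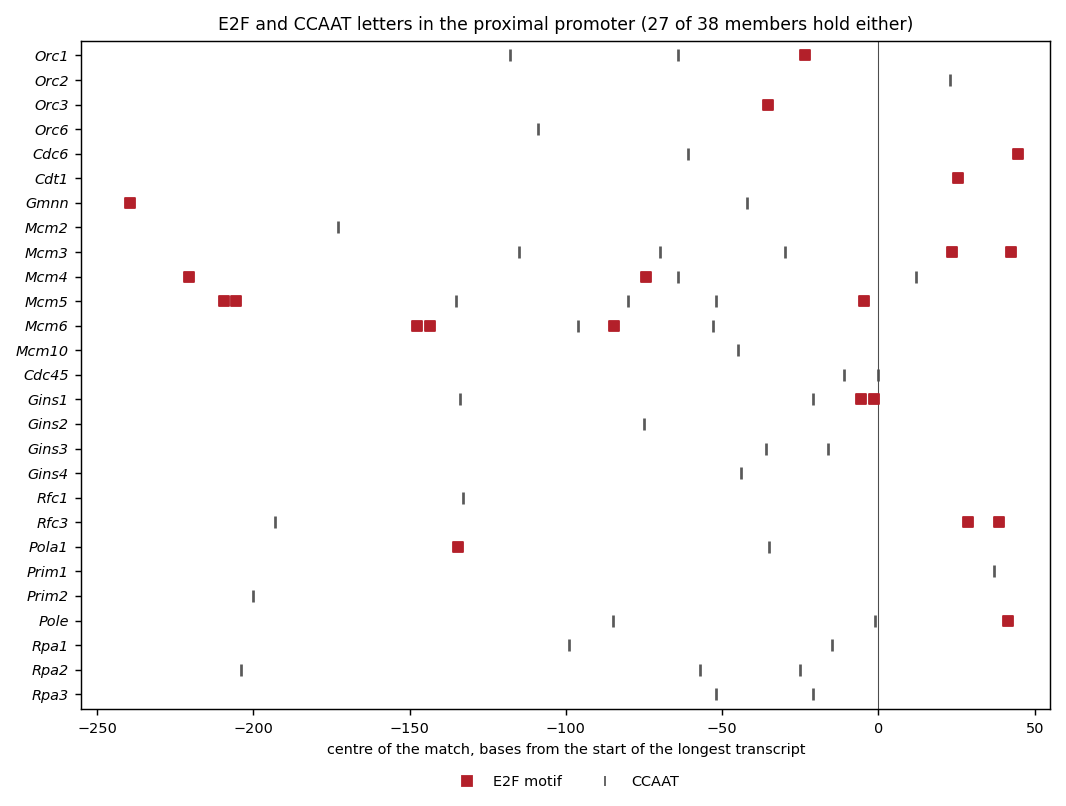
Positions of E2F (squares) and CCAAT (bars) letters in the proximal promoter of the 27 members that hold either, in bases from the start of the longest transcript, in order of role. Mcm5 and Mcm6 carry 3 E2F matches each, Mcm3, Mcm4, Gins1 and Rfc3 a pair, and the matches of Cdc6, Cdt1, Mcm3, Rfc3 and Pole lie after the start.

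Both polymerase forms were present at the start of each of the 38 members, with Pol2-S5p in 38, against 69.9% of protein-coding genes, and Pol2-S7p in 38, against 60.4%. H3K27me3 was in the window of 3 members, against 37.7% of protein-coding genes. As a result 35 members were Active, against 35.9% of protein-coding genes, 3 were PRCa (Mcm2, Gins2 and Orc6), against 23.9%, and 0 were Inactive, against 23.5%. Among the 13119 protein-coding genes that also had both polymerase forms at the start, 40.0% were PRCa. At the start of the longest transcript, where 58.5% of protein-coding genes had both polymerase forms, all 38 members had them again. There Pole joined the PRCa members, giving 4 of 38 against 42.4% of the protein-coding genes with both forms. No member was PRCr or lacked a polymerase form under either choice of start.

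Most of these calls rested on wide polymerase regions. With regions over 10 kb left out, Pol2-S5p was at 10 member starts and Pol2-S7p at 8, and 6 members were Active, against 9.09% of protein-coding genes. When the lower-scoring regions of each list, up to its median score, were left out, 16 members were Active, against 20.9% of protein-coding genes, and 11 had no mark. For the other counts under these filters, the share over protein-coding genes was not taken. The score is the value that the peak finder gave each region, used here only to rank regions within a list.

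**Figure D2:**
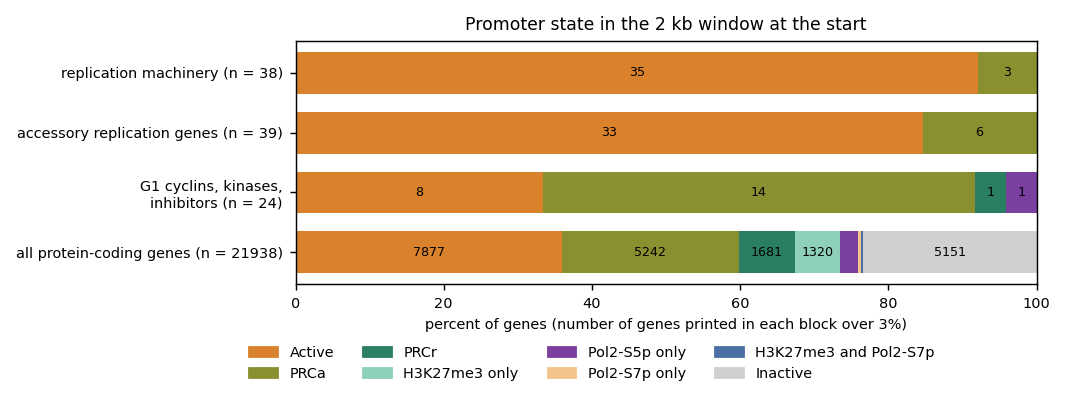
Share of genes in each promoter state, in percent, for the 38 replication machinery genes, 39 accessory replication genes, 24 G1 regulators and 21938 protein-coding genes, with 1 library per mark. The replication rows hold Active and PRCa promoters only, 35 and 3 in the machinery, while Inactive promoters appear in the row of all protein-coding genes.

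The origin recognition complex, the 6-subunit platform on which licensing is built, had the lowest body cover of the groups of 6 genes. Body cover is the percent of the whole gene record that lies inside regions of a mark. Its median over Orc1 to Orc6 was 17.9% for Pol2-S5p and 43.5% for Pol2-S7p, against 100% for both over all 38 members. Orc1 to Orc5 were 35.4 to 63.9 kb long and Orc6 8.65 kb, beside a median of 16.7 kb over the members. The part of gene length in the low cover was not tested. Orc1, a subunit with ATPase activity, was covered over 100% of its 35.4 kb by Pol2-S5p and 95.5% by Pol2-S7p. Records of other genes overlapped 63.3% of the Orc1 body. Orc2 had a Pol2-S5p region of 6.6 kb at its start and another at its end, which together covered 9.3% of the gene, and it lay wholly within a Pol2-S7p region of 127.8 kb that also held the starts of Bzw1, Clk1, Nif3l1 and Ppil3. Orc3 had narrow regions of 3.2 kb in both lists at the start of its longest transcript and wider ones near its end, with 52% and 38.8% of the body covered. Orc4 had regions of 1.6 kb (Pol2-S5p) and 1.4 kb (Pol2-S7p) at its start, with scores at the 85.1 and 93.1 percentile of their lists, and 10.7% and 26.1% of its body covered.

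Orc5 showed the lowest Pol2-S5p cover of all members, 0.672% of 63.9 kb. A region of 600 bp at its start, with a score at the 98.2 percentile, made up the whole of it, while Pol2-S7p covered 35.6% of the gene in 2 regions. Near the end of Orc5, from 53 to 59 kb past the start, an H3K27me3 region of 6000 bp (chr5:22491400-22497399, score 7.24) lay inside the gene and covered 9.38% of it. It held no protein-coding start, and Orc5 was called Active. Orc6, the smallest and least conserved subunit, differed from the other five in having H3K27me3 at its start.

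Orc6 lies at chr8:85299632-85308278, and its start is shared head to head with Vps35, a retromer subunit, so that both starts stood in a single H3K27me3 region of 1200 bp (chr8:85299400-85300599). That region held the start of the longest Orc6 transcript and ended 0.91 kb after it, with a score of 6.26, above 28.1% of the scores in its list. Pol2-S5p (3.2 kb, score 29.1) and Pol2-S7p (4.6 kb, score 22.7) extended beyond it on both sides. The Orc6 body was covered over 25.1% by Pol2-S5p, 48.2% by Pol2-S7p and 11.2% by H3K27me3, and Vps35 was PRCa as well.

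The loading factors Cdc6 and Cdt1 and the Cdt1 inhibitor Gmnn (geminin) were Active, with 100% of each body in both polymerase lists. For Cdc6 the Pol2-S7p region had nearly the outline of the gene, from 401 bp before the start of the longest transcript to 1059 bp past the gene end, whereas its Pol2-S5p region was 135.6 kb wide. Gmnn, a gene of 10.1 kb, had a Pol2-S7p region of 17.4 kb, from 2876 bp before the start to 4445 bp past the gene end. Its Pol2-S5p region was 24 kb wide. Cdt1, a gene of 5.54 kb, lay within the widest Pol2-S7p region of any member, 219.6 kb, which held 9 other protein-coding starts, Piezo1, Aprt and Cyba among them. Its 100% cover was thus shared with a dense stretch of neighbours, and records of other genes overlapped its whole body.

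Of the helicase ring genes Mcm2 to Mcm7, 5 of 6 were Active. In 5 of 6 the whole body was covered by both forms, and Mcm4 had 82.9% in Pol2-S5p and 77.8% in Pol2-S7p. The Pol2-S7p regions at their starts were 45 kb (Mcm2), 29.2 kb (Mcm3), 5.4 kb (Mcm4), 52.2 kb (Mcm5), 95.8 kb (Mcm6) and 37.6 kb (Mcm7). For Mcm3 both forms began 87 bp before the start of the longest transcript and ended 16168 bp (Pol2-S5p) and 11768 bp (Pol2-S7p) past the gene end. Mcm4 shared its window with Prkdc, the catalytic subunit of DNA-dependent protein kinase, and its promoter region in Pol2-S7p had a score of 23.1. Mcm7 shared its window with Ap4m1, an adaptor complex subunit, in a Pol2-S7p region that also held Cnpy4, Cops6, Mblac1 and Taf6.

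Mcm2 was the one ring gene with H3K27me3 at its start. It lies at chr6:88883474-88898780 on the minus strand, and an H3K27me3 region of 48.6 kb (chr6:88897200-88945799) reached from 47 kb before its start to 1.58 kb after it. The region filled the 2 kb window, covered 10.3% of the Mcm2 body and also held the start of Tpra1, which was PRCa too. Its score was 6.22, above 27.5% of the list. Pol2-S5p (132.6 kb, score 8.54) and Pol2-S7p (45 kb, score 13.2) both began 14819 bp before the start and covered the whole body, so that the Polycomb mark ended inside the first part of the gene while polymerase went on. Nearest downstream, Podxl2, Abtb1 and Mgll were PRCa.

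Of the helicase activators, Mcm10 and Cdc45, which help to turn the loaded ring into a working helicase, were Active with both bodies covered over 100% by both forms. Their Pol2-S7p regions were 52.2 kb and 65.8 kb wide, and that of Cdc45 also held Ufd1, with which it shares its window. The 4 subunits of GINS, which act as 1 complex, were unlike each other. Gins1 and Gins3 had promoter regions alone, of 600 bp in both lists for Gins1 and of 800 bp (Pol2-S5p) and 600 bp (Pol2-S7p) for Gins3. They covered 2.32% of the Gins1 body in each list, and 4.71% and 2.99% of the Gins3 body. The Gins1 scores, 47.8 and 44.8, stood at the 94.4 and 94 percentile. Gins4 was covered over 100% by Pol2-S5p but over 38.6% by Pol2-S7p.

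Gins2 had all 3 marks over its whole body of 10.7 kb (chr8:120578633-120589304, minus strand). Its H3K27me3 region was 52.4 kb wide (chr8:120547200-120599599, score 6.94), from 10.3 kb before the start of the longest transcript to 42.1 kb after it, and its Pol2-S5p region, 425.8 kb, was the widest of any member. Both regions ran on into the downstream neighbour Gse1, which was PRCa. Pol2-S7p started 495 bp before the longest transcript of Gins2 and extended over 85.8 kb. A longer gene record that overlaps the locus took in the whole Gins2 body, so the signal of Gins2 and that of overlapping transcripts cannot be told apart.

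**Figure D3:**
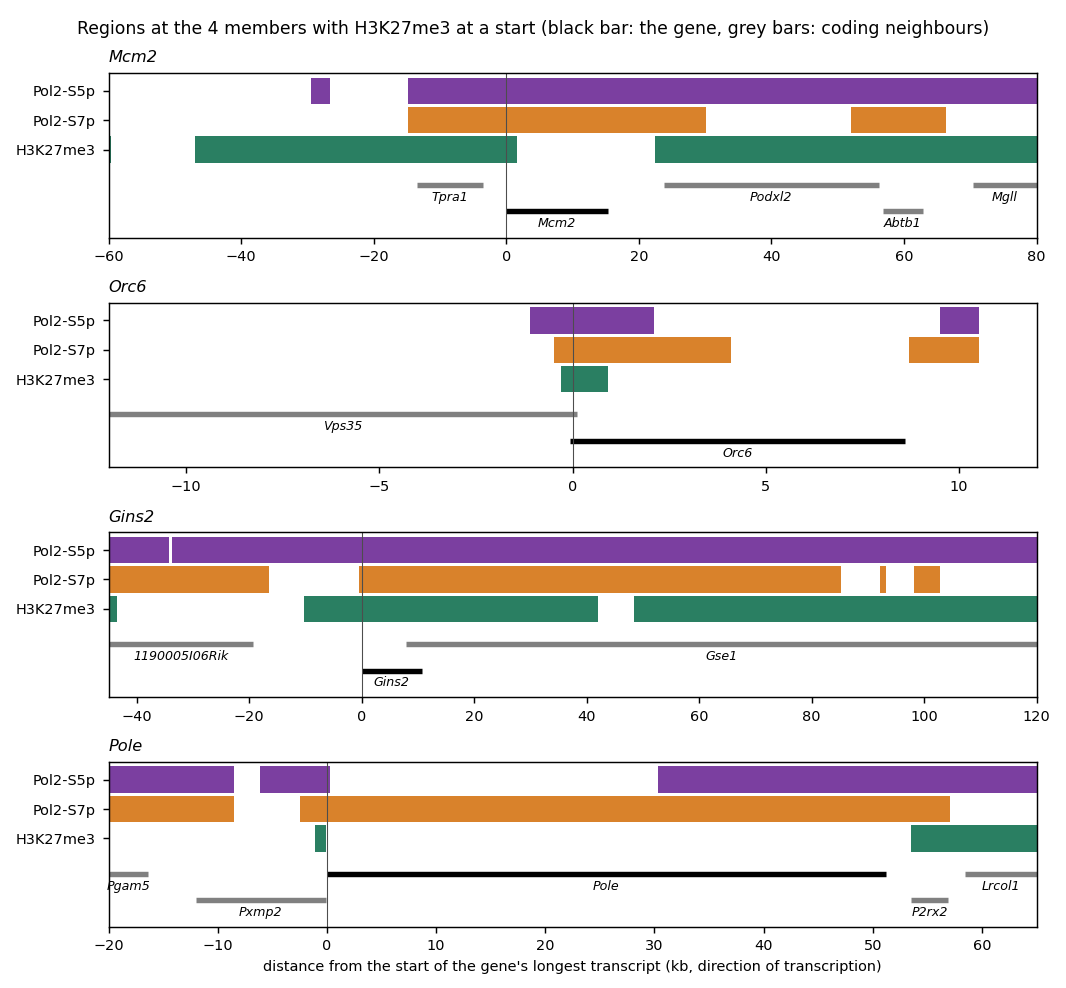
Regions of the 3 marks at Mcm2, Orc6, Gins2 and Pole by distance from the start of the longest transcript, in kb in the direction of transcription. H3K27me3 covers the first 1.58 kb of Mcm2 and the whole of Gins2, overlaps the shared start of Orc6 and Vps35 over 1200 bp, and lies just before the start of Pole.

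For the clamp and its loader, the 6 members were Active. Pcna, the sliding clamp, showed the clearest difference between the polymerase forms in a short gene. A Pol2-S5p region of 13 kb (score 16.5) reached 12085 bp before its start and covered 22% of its 4.15 kb, while a Pol2-S7p region of 87 kb, which also held the starts of Cds2 and Tmem230, covered all of it. Rfc1, the large loader subunit, had the opposite order, with 100% of 73.8 kb in Pol2-S5p and 55.6% in Pol2-S7p. Rfc2 was covered over 92% and 94%, both forms beginning 90 bp before the start of its longest transcript. Rfc3 had regions of 800 bp and 600 bp at its start, 7.58% and 5.74% of the body. Rfc4 and Rfc5 lay wholly within both forms, and their Pol2-S7p scores, 28.1 and 25.9, stood at the 83.6 and 81.3 percentile, for regions of 42.8 kb and 62.4 kb.

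The polymerase genes were Active at the chosen starts. Pola1 (327 kb, chrX) and Prim2 (216 kb), the catalytic subunit of DNA polymerase alpha and the large primase subunit, were the members over 100 kb. Pola1 was covered over 15% by Pol2-S5p and 5.55% by Pol2-S7p. Its promoter regions were 26 kb and 24.4 kb wide but low in score, 3.31 and 5.24, at the 2.78 and 6.42 percentile of their lists. As the line is male, Pola1 is present in a single copy per cell, and the effect of copy number on its scores was not tested. Prim2 was covered over 25.4% and 21.4%, likewise with low scores of 4.3 and 4.77, and an H3K27me3 region of 4000 bp (chr1:33567000-33570999, score 12.8) lay inside it, 98.8 to 103 kb past the start, over 1.85% of the gene. Their partners were shorter and more fully covered. Pola2 had 87.3% in Pol2-S5p and 100% in Pol2-S7p, and Prim1 had 100% in both, in a Pol2-S7p region of 174.4 kb that also held Atp5b, Baz2a, Naca, Ptges3 and Rbms2.

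Pold1 and Pole, the catalytic subunits of the main lagging and leading strand polymerases, were covered over 100% by Pol2-S7p. Pold1 had 100% in Pol2-S5p as well, and Pole had 41.4%. The start of the longest Pole transcript lies head to head with Pxmp2, a peroxisomal membrane protein gene. There an H3K27me3 region of 1000 bp (chr5:110285200-110286199) ended 106 bp before the gene and filled 894 bp of the window, and Pole was then PRCa. Its score, 4.74, stood at the 9.25 percentile, the lowest of the H3K27me3 regions found at member starts or bodies. At the start chosen by Pol2-S5p coverage, 41.3 kb into the gene, Pole was Active, so its state depended on the start used.

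The single-strand binding complex and the enzymes of Okazaki fragment joining completed the list, all Active. Rpa1, the large subunit, had regions of 800 bp (Pol2-S5p, score 74.4) and 1400 bp (Pol2-S7p, score 51.6) at its start, at the 99.5 and 96.3 percentile, and further regions in the body that brought the cover to 72.5% and 33%. Rpa2 was covered over 100% by both forms. Rpa3, the shortest member at 3.24 kb, had a region of 1200 bp in each list, 17.7% of its body, at a start shared with Umad1 and Gm45062. Fen1, which trims the flaps of Okazaki fragments, was covered over 100% by both forms. Its window was shared with Tmem258, and records of other genes overlapped 67.7% of its body. Lig1, the ligase that seals the fragments, had 100% and 96.5% in a window shared with Zswim9.

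**Figure D4:**
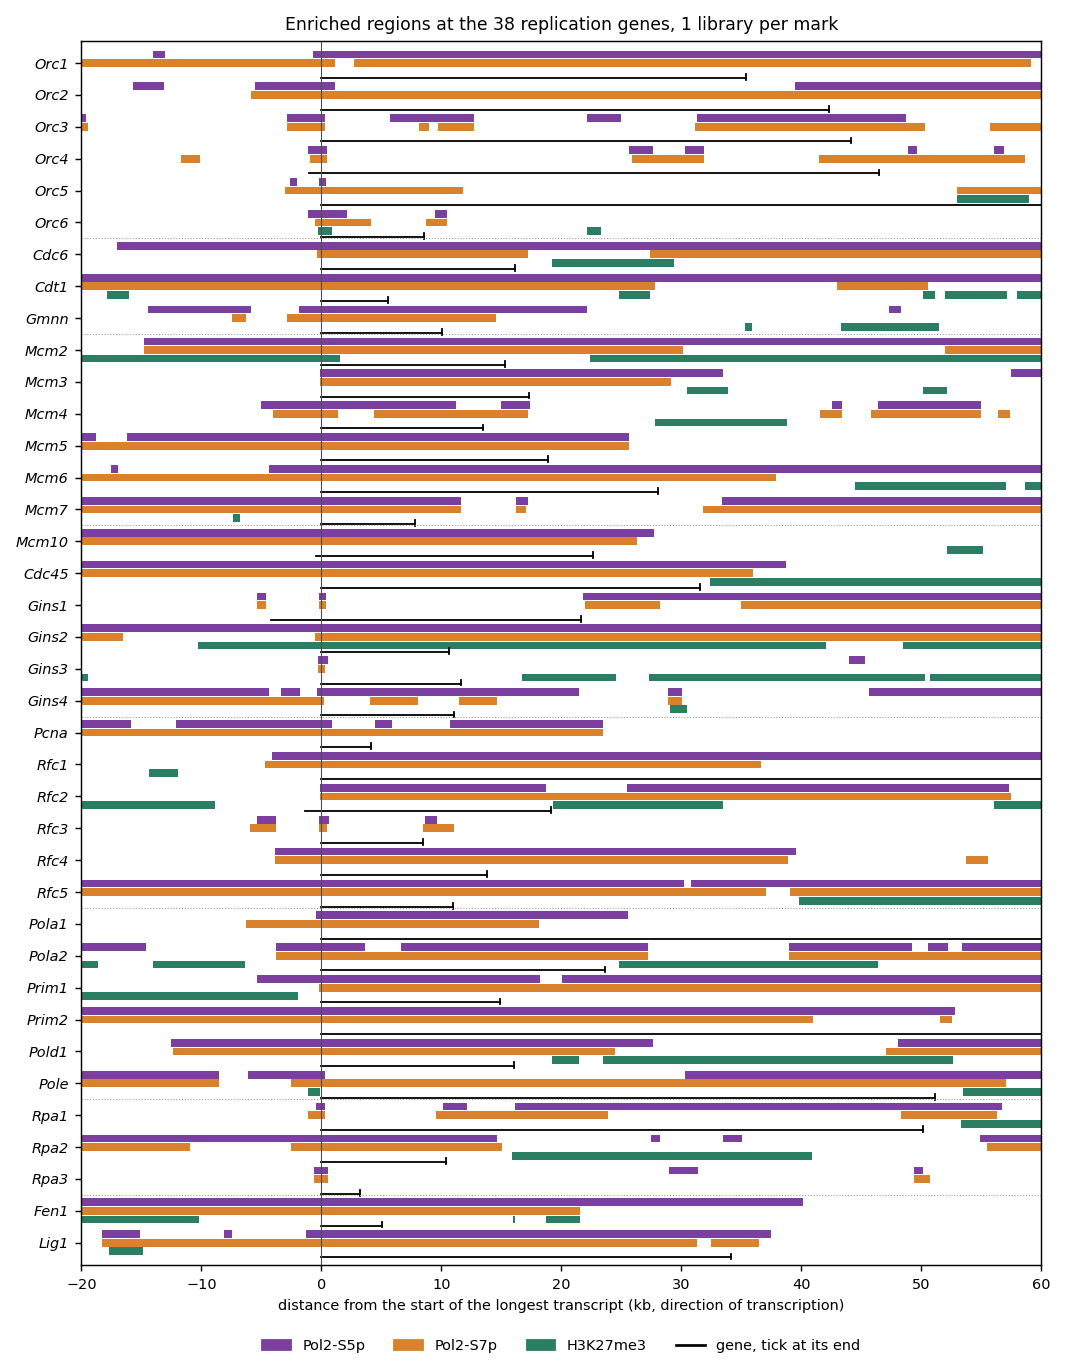
Enriched regions of Pol2-S5p, Pol2-S7p and H3K27me3 from 20 kb before to 60 kb after the start of the longest transcript of each member, in kb in the direction of transcription, with the gene as a black line. Regions wider than the gene are seen at most Mcm genes, and regions of 600 to 1600 bp at the starts of Gins1, Gins3, Rfc3, Rpa3 and Orc4.

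Over the whole list, at least 80% of the body was covered by Pol2-S5p in 24 genes, against 33.3% of all protein-coding genes and 50.9% of those with both polymerase forms at the start. The same number, 24, reached 80% in Pol2-S7p, against 30.5% and 50.5%. Both marks reached it in 21 members and covered the whole body in 17. At the other end, 5 members (Gins1, Gins3, Rfc3, Rpa3 and Pola1) had less than 20% in both. How many other genes had both marks at these levels was not counted. The median was 100% for each form in the members, 13.2% (Pol2-S5p) and 5.37% (Pol2-S7p) in all protein-coding genes, and 88.8% and 100% in Active ones. Without the lower-scoring regions of each list the median over the members was 2.47% for Pol2-S5p and 4.1% for Pol2-S7p. Of the 21 members fully covered by each form, 8 were still fully covered for Pol2-S5p and 13 for Pol2-S7p. Body cover without the lower-scoring regions was not measured over other genes.

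Gene length moved with cover. Of the 21 members under 20 kb, 16 had at least 80% in Pol2-S5p and 15 in Pol2-S7p, where the shares over Active genes of that length were 72.6% and 78.5%. Of the 11 members from 20 to 50 kb the counts were 7 and 8, beside 45.9% and 53% of Active genes. Of the 6 members of 50 kb or more, Rfc1 reached 80% in Pol2-S5p and Pole in Pol2-S7p, 16.7% of the members of that length in each case, beside 24.4% and 22% of Active genes. The median length of the members was 16.7 kb, that of Active genes 22.5 kb, and the part of length in the difference of cover was not tested further.

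**Figure D5:**
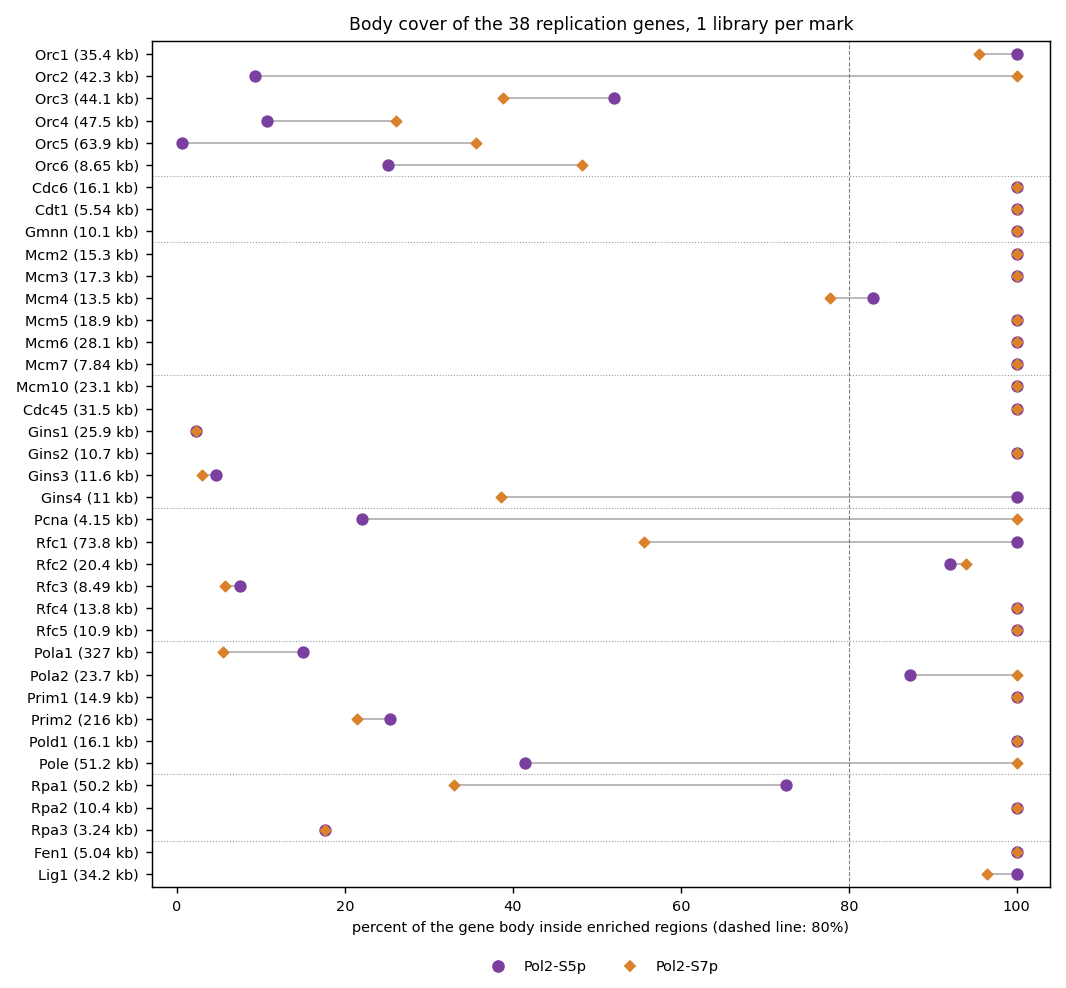
Percent of each gene body inside Pol2-S5p regions (circles) and Pol2-S7p regions (diamonds), with gene length in brackets and a line joining the values of a gene. A total of 17 members sit at 100% for both forms, Gins1, Gins3 and Rfc3 sit below 10%, and long lines mark Orc2, Orc5, Pcna, Pole, Gins4, Rfc1 and Rpa1.

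The forms differed by at least 20 percentage points of body cover in 8 members. Pol2-S7p was higher in 5, Orc2 (90.7 points), Pcna (78 points), Pole (58.6 points), Orc5 (34.9 points) and Orc6 (23.1 points), against 8.58% of protein-coding genes with both forms at the start. Pol2-S5p was higher in 3, Gins4, Rfc1 and Rpa1, against 10.3%. With 1 library per form, differences between the forms and differences between the libraries cannot be told apart.

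The widest region at the promoter had a median width of 34.8 kb for Pol2-S5p and 39.5 kb for Pol2-S7p over the members, and at the start of the longest transcript 29.8 kb and 37.2 kb. Over Active genes the medians were 24 kb and 27.4 kb. Pol2-S7p regions ranged from 600 bp (Gins1, Gins3 and Rfc3) to 219.6 kb (Cdt1), followed by Prim1 (174.4 kb), Orc2 (127.8 kb) and Mcm6 (95.8 kb). The Pol2-S5p region was the wider in 23 members and the Pol2-S7p region in 13, and in 2 the widths were equal. The same count was not made over other genes. Both regions were under 2 kb in 6 members (Orc4, Gins1, Gins3, Rfc3, Rpa1 and Rpa3), against 17.6% of protein-coding genes with both forms. Their scores were at the 79.6 percentile or higher in both lists. Scores of equally narrow regions at other genes were not examined.

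The Pol2-S7p region at the start held another protein-coding start in 23 members, against 53.1% of Active genes, and none in 15. On the upstream side, the region that held the start of the longest transcript began less than 1 kb before it in 11 members for Pol2-S5p, against 45.3% of protein-coding genes whose start lay in such a region, and in 11 for Pol2-S7p, against 46.3%. Mcm3, Rfc2, Rfc3, Gins1, Gins3 and Rpa3 were in both sets. The gene end lay inside a Pol2-S5p region in 26 members, against 69.3% of Active genes, and inside a Pol2-S7p region in 31, against 71.2%. Those regions ran a median of 11.8 kb and 8.35 kb past it. Over Active genes the corresponding medians were 12.6 kb and 9.74 kb.

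The window of 14 members overlapped that of another protein-coding or long noncoding RNA gene, against 19.6% of protein-coding genes. The neighbour was protein-coding in 8 members, Mcm4 (Prkdc), Mcm7 (Ap4m1), Orc4 (Mbd5), Orc6 (Vps35), Cdc45 (Ufd1), Rpa3 (Umad1 and Gm45062), Fen1 (Tmem258) and Lig1 (Zswim9). In Orc2, Orc5, Pcna, Rfc4, Rfc5 and Prim2 it was a long noncoding RNA gene. At the start of the longest transcript 19 members shared a window, among them Orc1 with Prpf38a, Orc3 with Rars2, Rpa1 with Smyd4 and Pole with Pxmp2. The share of 19.6% belongs to the chosen starts, and none was counted at the start of the longest transcript. At shared starts the regions of the member and of its neighbour cannot be told apart.

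H3K27me3 touched the body of 5 members (Mcm2, Gins2, Orc6, Orc5 and Prim2), against 49.1% of protein-coding genes with both polymerase forms, and it lay in or within 10 kb of the gene in 17, against 64.7% of those genes and 41.2% of Active ones. The nearest regions outside a gene were at Pole (106 bp), Rfc2 (194 bp), Cdc45 (847 bp), Pola2 (1142 bp) and Prim1 (1968 bp). Orc4, at 356122 bp, was the farthest from any H3K27me3 region. The H3K27me3 regions at the starts of Mcm2, Gins2 and Orc6 all scored below the list median of 8.23, and the region inside Prim2 was the one above it.

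Other genes of the replication fork were taken as a list of 39 accessory factors, such as further polymerase subunits, fork protection factors and nucleotide enzymes. All 39 had both polymerase forms at the start, with 33 Active and 6 PRCa. Scored at their longest transcripts 32 were Active and 7 PRCa, with Rnaseh2b added. The 6 were Pold4, Pole3, Dbf4, Recql4, Top1 and Chtf18. Their H3K27me3 regions ranged from 1000 bp at Dbf4, the activating subunit of the Cdc7 kinase, to 50.4 kb at Pold4, a small subunit of DNA polymerase delta. The widest Pol2-S7p regions were at Recql4, a helicase (208.8 kb), and Supt16, a subunit of the histone chaperone FACT (178 kb). The median body cover was 90.9% for Pol2-S5p and 100% for Pol2-S7p, and 7 of 39 held an E2F motif, or 10 at the start of the longest transcript.

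The 24 genes that control entry into S phase, cyclins, kinases and their inhibitors, the retinoblastoma family and E2F factors, were also scored. Of these 8 were Active, 14 PRCa, 1 PRCr (Ccnd2) and 1 had Pol2-S5p alone (E2f6). Thus 15 of 24 carried H3K27me3 at the start, beside 3 of 38 in the machinery and 37.7% of all protein-coding genes. E2f6 was PRCa at the start of its longest transcript, giving 15 PRCa genes and 16 of 24 with H3K27me3. PRCa genes included the cyclins Ccnd1 and Ccne2, the kinases Cdk4 and Cdk6, and the inhibitors Cdkn1b, Cdkn1c and Cdkn2a. H3K27me3 regions at these promoters were 7200 bp at Ccnd1, 75.2 kb at Ccnd2, 2200 bp at Ccne2, 71.6 kb at Cdk4, 4200 bp at Cdk6, 8400 bp at Cdkn1b, 136.6 kb at Cdkn1c and 39.4 kb at Cdkn2a. The widest Pol2-S7p regions were at E2f1 (158 kb) and Cdk4 (112.6 kb). An E2F motif was found in 7 of 24. The median ratio of observed to expected CpG was 0.713 over the G1 genes, beside 0.596 over the machinery. The lists thus differ in gene function and CpG ratio as well as in state, and the difference between them was not tested.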

How the data were processed

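ChIP-seq libraries for H3K27me3, Pol2-S5p and Pol2-S7p (1 per mark) were examined. The authors mapped single-end reads to mm10 with strain variants masked, using Bowtie2 (version 2.3.4.3 in the submitters' processing notes), and called regions per library with the BCP peak finder in its histone mode. The deposited files give positions, a score whose unit is not stated (used only for ranking) and a width in bp, a value of its own kind (other) in steps of 200 bp. Gene models came from GENCODE M21 on GRCm38, the assembly of mm10, and sequence from the same assembly, whose chromosome ends held all regions. On 21 chromosomes there were 21938 protein-coding and 13374 long noncoding RNA genes. Sequence windows ran from 250 bases before to 50 after a start. Python 3.11.15, NumPy 2.4.6 and Matplotlib 3.10.9 were used, and functions were checked on simulated data. No test was possible without replicates.

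The members and lists were chosen with earlier results of these data known. Named genes were those not Active, with H3K27me3, at the extremes of Pol2-S7p cover (4 lowest, 21 tied at 100%) and width (4 widest and narrowest), over 100 kb, with coding neighbours in the window or with a state that changed with the start, and the other members were described by role. In the accessory and G1 lists, up to 8 genes that were not Active and the 2 with the widest Pol2-S7p regions were named. Alternatives were windows of 1 and 4 kb, other starts, stricter regions, and removal of wide regions or shared windows.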

Additional observations from a re-analysis of the deposited data

How the results depend on the processing

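No paired analysis was possible because each mark had 1 library and no result came from a test. Windows of 1 or 4 kb, a minimum of 500 bp of the window and, apart from the E2F motif and the region widths, the start of the longest transcript left the counts within 1.5 times.

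Without regions at or below the median score of each list, Pol2-S5p was in 21 windows, Pol2-S7p in 22 and H3K27me3 in 0. The counts were then 16 Active, 0 PRCa and 11 without a mark, with 10 (Pol2-S5p) and 14 (Pol2-S7p) bodies at 80% or more, 1 body with H3K27me3, medians of 2.47% and 4.1% of the body, and median widths of 13000 and 33900 bp. With polymerase regions over 10 kb left out, the counts were 10 (Pol2-S5p), 8 (Pol2-S7p), 6 Active, 1 PRCa and 25 without a mark. Under this setting and the score filter, shares over all protein-coding genes were taken for the Active state alone. Without H3K27me3 regions over 10 kb, 1 window held H3K27me3 and 1 member (Orc6) was PRCa. In the 24 members that shared no window, 24 had Pol2-S5p, 24 Pol2-S7p and 22 were Active, with median widths of 36900 bp (Pol2-S5p) and 33900 bp (Pol2-S7p). At the start of the longest transcript, and of the longest protein-coding transcript (an alternative chosen after seeing the data, as were the differences of 20 points and the regions under 2 kb), median widths were 29800 and 37200 bp and 13 members held an E2F motif. With 500 bases on each side of the start, 14 did, against 6.56% of protein-coding genes and 9.48% of Active ones. With protein-coding neighbours alone, 8 members shared a window.

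The files hold no read counts, so depth could not be weighed, and broad regions could not be split by gene.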
